A study of Bos taurus with 2 samples.

Results

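Cluster 3 of the cultured bovine satellite cells held 2034 of the 19096 cells analyzed (10.7%). The cells of the cluster were those for which the authors deposited the averages of cluster 3, 1 of the 15 clusters that Cell Ranger drew on the pooled cells, and the identity of each cell was deduced from those averages and the deposited counts. Both libraries were prepared from the same satellite cells of 1 male Holstein calf aged 2 weeks, isolated from skeletal muscle and kept for 1 week in DMEM with fetal bovine serum. All cells therefore shared 1 animal, 1 culture and 1 medium, a growth medium, and the spread between replicates 1 and 2 is that of library preparation and sequencing, not that between animals. The measurement was single-cell RNA sequencing of 3′ ends on the 10x Genomics platform, in which each captured RNA molecule is counted once by a unique molecular identifier (UMI). Cluster 3 included 1115 of 9939 cells of replicate 1 (11.2%, 95% exact binomial interval 10.6 to 11.9%) and 919 of 9157 cells of replicate 2 (10.0%, 9.43 to 10.7%). These intervals cover counting error only. The UMIs of the cluster summed to 18929219 in replicate 1 and 16426808 in replicate 2, of 145631299 and 137818568 UMIs in the libraries. A cell of the cluster had a median of 16482 UMIs, with a range from 3797 to 47675, and a median of 3680 genes. There were 27 barcodes shared by the libraries, and 1 cell of cluster 3 carried such a barcode.

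Satellite cells are the stem cells of skeletal muscle fibers. Their dividing progeny, the myoblasts, make MYOD1 and MYF5, transcription factors that commit cells to the muscle lineage. Myoblasts that differentiate leave the cell cycle, make myogenin (MYOG), a transcription factor that turns on the genes of the contractile apparatus, and then fuse into multinucleated myotubes with the help of membrane proteins such as myomaker (MYMK).

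The name given to the cluster, early differentiating myoblasts, was first compared with its markers MYOG, MYOD1 and DES, which encodes desmin, the intermediate filament protein of muscle. A level here is the number of UMIs of a gene per 10000 UMIs of a cluster in 1 library, without division by gene length, because only the 3′ ends of transcripts were counted. The level of MYOG (ENSBTAG00000006030) in cluster 3 was 6.61 in replicate 1 and 6.76 in replicate 2. Only cluster 12 had more, with levels of 18.1 and 19.2, and next after cluster 3 came cluster 15 with 4.93 and 3.06, whose cells had a median of only 647 UMIs, the levels of all other clusters being 1.81 or lower. DES (ENSBTAG00000005353) had levels of 10.8 and 10.2 in cluster 3. Its order was the same at the top, with 22.5 and 22.0 in cluster 12. MYOD1 (ENSBTAG00000002216) had levels of 6.52 and 6.18 in cluster 3, which did not stand apart from the 7.02 and 6.42 in cluster 2 or the 7.0 and 6.5 in cluster 13. Thus the muscle markers of the name were all present, and MYOG and DES were each at rank 2 of the 15 clusters, while MYOD1 was at rank 3 among clusters whose libraries overlapped. The study annotated the cluster by these genes in the same cells, so their levels here are not independent evidence for the name.

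**Figure D1:**
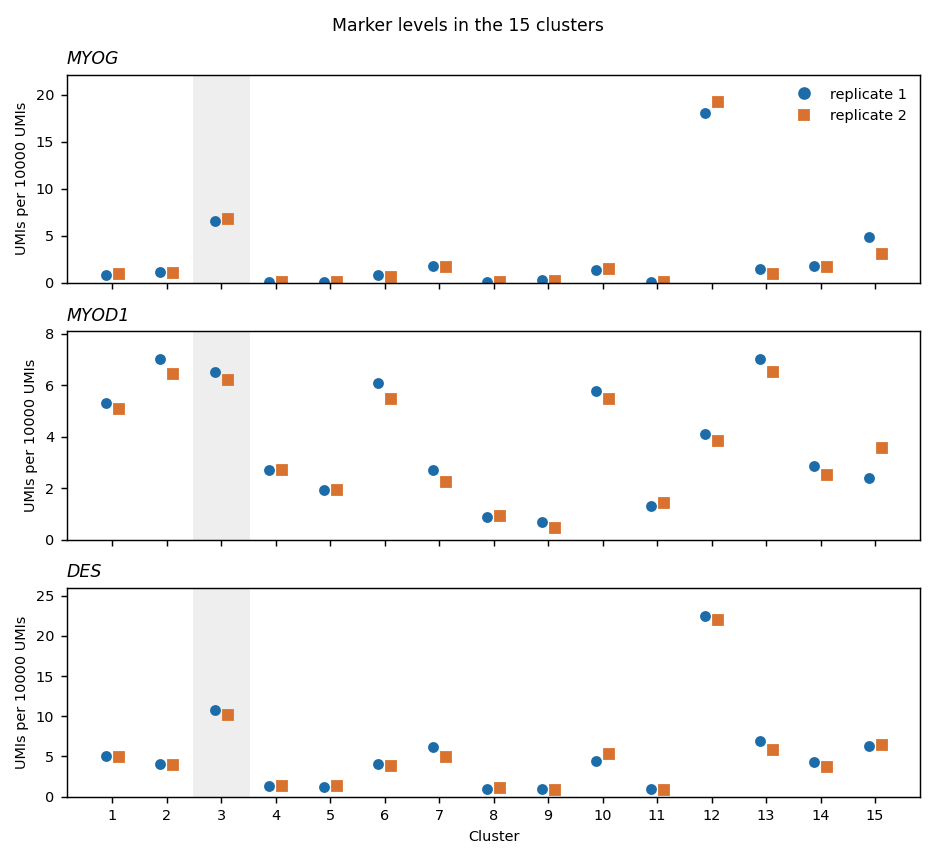
Level of MYOG, MYOD1 and DES, in UMIs per 10000 UMIs, in each of the 15 clusters, with 1 point per library (circles, replicate 1; squares, replicate 2) and cluster 3 on a grey band. MYOG and DES in cluster 3 lie below cluster 12 and above the other clusters in both libraries, and MYOD1 lies among clusters 2, 6, 10 and 13.

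The markers were then followed in single cells, each thinned at random to 5000 UMIs so that cells of unequal depth could be compared, which left out 3 cells of cluster 3. At least 1 MYOG UMI was counted in 62.8% of the 2031 cells kept (63.3% in replicate 1 and 62.2% in replicate 2), against 76.4% without thinning. The same share was 18.2% in cluster 1 and 97.9% in cluster 12. In cluster 9, named fibro-adipogenic progenitors, which should lack the gene, it was 7.13% after thinning and 23.6% before, with a median of 23011 UMIs per cell. MYOD1 was counted in 90.0% of the cells of cluster 3 after thinning and DES in 95.6%, against 13.8% and 22.1% in cluster 9. All 3 markers were found together in 1120 cells (55.1%), and none of them in 5 cells. A further 666 cells (32.8%) had MYOD1 without MYOG, 114 cells (5.61%) had MYOG without MYOD1, and 89 cells (4.38%) had neither. Cluster 3 thus joined cells with and without MYOG UMIs at this depth, where a cell without a UMI may still contain the transcript.

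**Figure D2:**
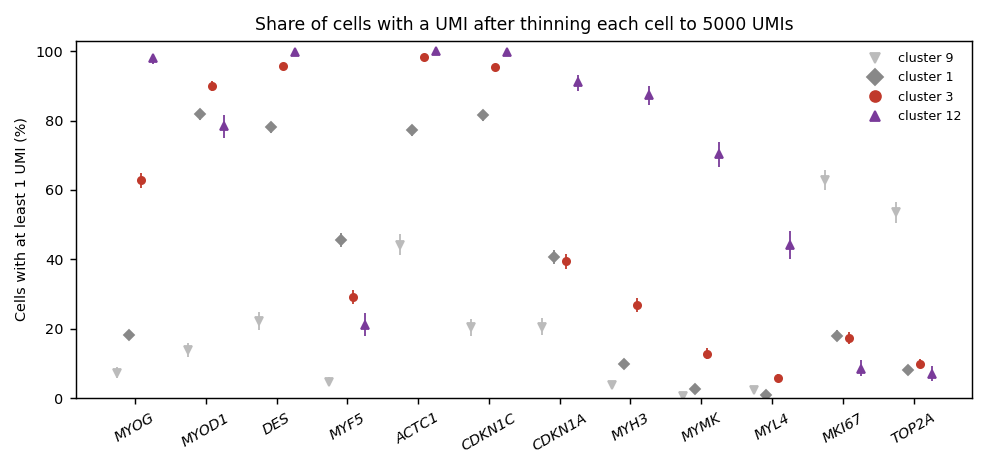
Share of cells with at least 1 UMI of 12 genes after each cell was thinned to 5000 UMIs, in percent, in clusters 9, 1, 3 and 12, with exact binomial 95% intervals for counting error. Cluster 3 lies between clusters 1 and 12 for MYOG, DES, MYH3, MYMK and MYL4, lies beside cluster 1 for CDKN1A and MKI67, and lies above both for MYOD1.

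Gene expression in cluster 3 was compared with that in all other cells by summing the UMIs within each library, as 2 sums against 2 (quasi-likelihood test of edgeR, with p-values adjusted by the Benjamini-Hochberg method and a threshold of 0.05). Of 13082 genes tested, 6523 (49.9%) passed the threshold, 3205 higher in cluster 3 (24.5%) and 3318 lower (25.4%). The clusters were drawn from the same counts, so that passing says only that a difference exceeded the spread between libraries, and no p-value is quoted as evidence for the cluster. Fold changes are scaled by TMM, a factor that sets most genes to no change, and plain library totals would move the median of all genes by −0.14 on the log2 scale and the split to 2142 higher and 4474 lower. Each gene called higher or lower below passed the threshold unless stated otherwise. Genes with the largest increases and decreases over all genes were ranked among those at a level of 1 or more in 1 of the groups compared. Counts of list members were read against the shares over all genes in the same comparison.

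The largest increase was that of MYOG, with a log2 fold change of 2.32 (SE 0.047), followed by ACTC1, the cardiac alpha-actin that embryonic skeletal muscle also makes, with levels of 61.0 and 59.2 in cluster 3 against 15.7 and 16.5 in all other cells (log2 fold change 2.03, SE 0.061). Then followed PVR, an adhesion receptor of the nectin family, with levels of 1.25 and 1.12 against 0.345 and 0.348 (log2 fold change 1.91, SE 0.073). CDKN1C, the cyclin-dependent kinase inhibitor p57, had levels of 18.6 and 19.1 against 5.38 and 5.69 (log2 fold change 1.90, SE 0.050). In each of these genes the libraries of cluster 3 lay far above those of the other cells. The other 11 of the 15 genes with the largest increases had log2 fold changes from 1.61 to 1.86. They included TNNC2 (fast troponin C), NEB (nebulin, the ruler of the thin filament), PDLIM3 and KLHL41 (proteins of the Z-disc and of sarcomere assembly), DES, CHRNG (the fetal gamma subunit of the acetylcholine receptor), RBM24 (a splicing regulator of muscle) and FNDC5 (the precursor of irisin). HERC4 (a ubiquitin ligase), FITM1 (a lipid droplet protein of muscle) and TMEM65 (a mitochondrial protein) completed the 15.

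The genes furthest below all other cells included several of cell division. TOP2A, the topoisomerase that untangles chromosomes, had levels of 0.230 and 0.231 in cluster 3 against 3.08 and 2.60 in all other cells (log2 fold change −3.49, SE 0.097). MKI67, the proliferation antigen Ki-67, had 0.440 and 0.566 against 3.62 and 3.49 (log2 fold change −2.69, SE 0.10). Log2 fold changes of the mitotic genes KIF20B and NUSAP1 were −3.22 and −3.10, and that of UHRF1, which keeps DNA methylation through replication, was −2.71. IGFBP5, a binding protein of insulin-like growth factors, was lower by the most, with levels of 0.0761 and 0.0755 against 1.04 and 1.03 (log2 fold change −3.64, SE 0.055), and the chemokine CXCL5 had a log2 fold change of −3.47. None of these genes reached a level of 1 in cluster 3.

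As a whole, the profile of cluster 3 lay nearest to those of clusters 1 and 12. Over 13782 genes, the Pearson correlation of log2(level + 0.1) with cluster 3 was 0.989 for cluster 1, 0.982 for cluster 12, 0.980 for cluster 6 and 0.975 for cluster 2, and it was lowest for cluster 7 with 0.906. These clusters share libraries, and the correlation is across genes and only a description. Of the 1567 genes with a level of 1 or more in cluster 3, 901 had a level between those of clusters 1 and 12. The counts of single cells matched the profile of cluster 3 best in 1786 cells (87.8%), that of cluster 6 in 96, that of cluster 1 in 65, that of cluster 12 in 60 and that of cluster 2 in 24. With the profile of cluster 3 left aside, the best match was that of cluster 1 in 826 cells (40.6%), of cluster 12 in 645 cells (31.7%), of cluster 6 in 384 cells (18.9%) and of cluster 2 in 170 cells (8.36%). Few genes peaked in the cluster itself, 22 of the 1567 being highest of the 15 clusters in both libraries, and none of these was as much as 1.2 times above the next cluster before rounding. The one furthest above was UGCG, the glucosylceramide synthase, with levels of 1.81 and 1.69 against 1.43 and 1.48 in cluster 12. MEOX2, a homeobox gene of the somite, and PDPN, which encodes podoplanin, followed with mean levels of 1.10 and 1.54, at 1.19 and 1.18 times the next cluster. Next by this ratio were RRS1, IDI1, TOMM20, SCAND1, ZFR, PAK2 and CITED2, at 1.17 to 1.08 times. For 14 of the 22 genes the next cluster was cluster 12. Most genes at this level thus peaked in another cluster.

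On the trajectory that the study inferred, cluster 3 lies between clusters 1 and 12. For this reason it was compared with clusters 1 and 12 one at a time in the same way. Cluster 1 is named MYF5-positive myoblasts, and cluster 12 is taken as further differentiated than cluster 3. Between clusters 3 and 1, 4562 of 11362 genes passed the threshold (40.2%), 2394 higher in cluster 3 (21.1%) and 2168 lower (19.1%). Between clusters 3 and 12, 3650 of 10811 genes passed it (33.8%), 1687 higher in cluster 3 (15.6%) and 1963 lower (18.2%). Both comparisons use the same sums of cluster 3, so their directions are not independent. Without TMM scaling the first split turned to 2137 higher and 2453 lower, with a median of all genes of −0.03 on the log2 scale. The second split became 2527 higher and 1552 lower, with a median of 0.12.

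Against cluster 1, the largest increase was that of MYLPF, the fast regulatory light chain of myosin, with levels of 13.9 and 12.7 in cluster 3 and 1.5 and 1.71 in cluster 1 (log2 fold change 3.09, SE 0.082). MYOG was next (log2 fold change 2.97, SE 0.076), from levels of 0.804 and 0.95 in cluster 1, followed by PVR (2.57). MYH3, the embryonic myosin heavy chain, with levels of 1.25 and 1.29 against 0.327 and 0.371, had a log2 fold change of 1.90, close to those of ACTC1 (1.89) and FNDC5 (1.75). In the other direction, TAGLN2, the actin-binding protein transgelin-2, had levels of 1.68 and 1.84 in cluster 3 and 7.63 and 8.12 in cluster 1 (log2 fold change −2.13, SE 0.055). Smaller decreases were those of ATF5, a stress-responsive transcription factor (−1.84), EMP3, a membrane protein (−1.60), ALDH1L2, a mitochondrial folate enzyme (−1.56), S100A4, a calcium-binding protein (−1.45), and MKNK2, a kinase of the translation factor eIF4E (−1.44).

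Against cluster 12, the gene furthest below was ACTA1, the alpha-actin of adult skeletal muscle, with levels of 0.394 and 0.326 in cluster 3 and 20 and 17.5 in cluster 12 (log2 fold change −5.80, SE 0.12). Cluster 3 was also lower in SMIM5, a small membrane protein (−3.91), MYL4, the embryonic and atrial light chain of myosin (−3.88), MYOZ2, a Z-disc protein (−3.73), MYH3 (−3.71) and MYMK (−3.30). On the other side stood IGFBP3, the main carrier of insulin-like growth factors in serum, with levels of 2.05 and 2.11 in cluster 3 and 0.350 and 0.329 in cluster 12 (log2 fold change 2.52, SE 0.068). PNP (purine nucleoside phosphorylase, 1.45), CREB3L1 (a membrane-bound transcription factor, 1.43), RIDA (a deaminase, 1.32), HES1 (a target of Notch, 1.31) and a gene without a symbol, ENSBTAG00000012184 (1.33), were next. This ranking holds among genes at a level of 1 or more in either cluster. PNP and CREB3L1 were lower in cluster 3 than in cluster 1 (−0.91 and −1.34). HES1 and RIDA did not pass the threshold against cluster 1 (0.24 and 0.12), but both passed it, at the same values, with the library as a block.

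**Figure D3:**
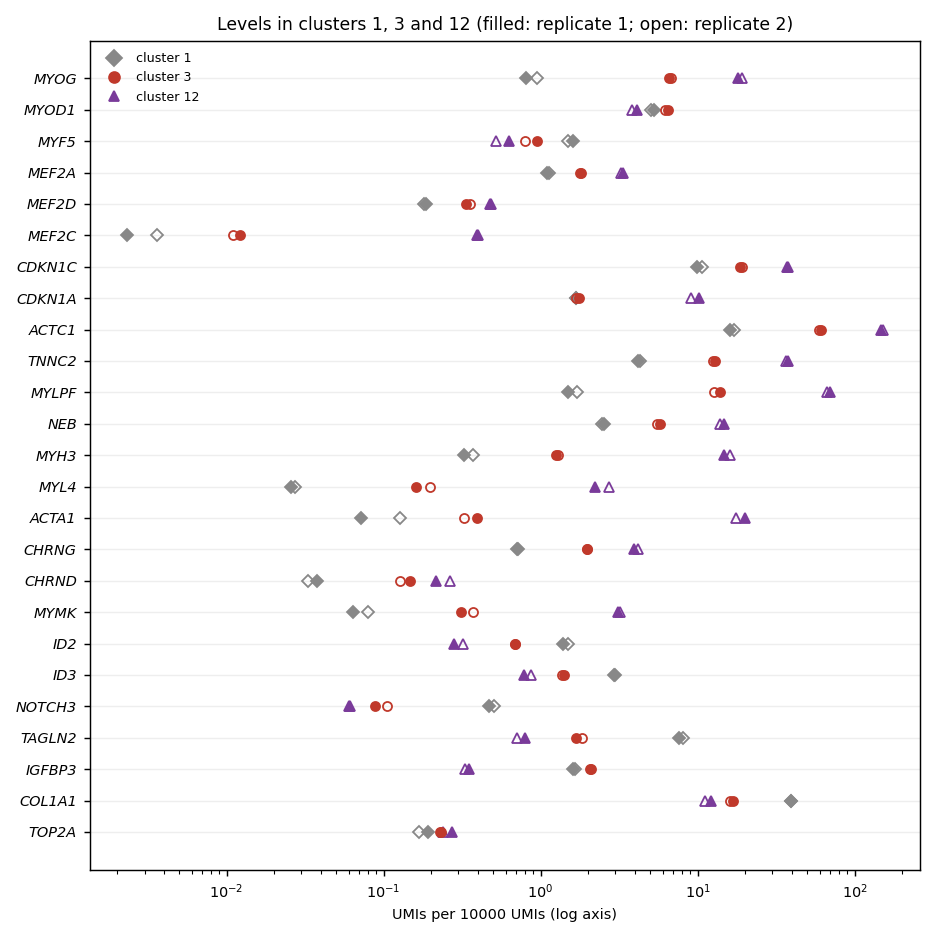
Levels of 25 genes in clusters 1, 3 and 12 in UMIs per 10000 UMIs on a log axis, with filled symbols for replicate 1 and open symbols for replicate 2. For most contractile genes cluster 3 lies between the other clusters, CDKN1A in cluster 3 lies with cluster 1, and ACTA1 and MEF2C lie closer to cluster 1 than to cluster 12.

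Transcription factors of myogenesis were examined as a list of 31 genes. Of the 30 tested, 17 were higher in cluster 3 than in all other cells and 4 were lower, with a median log2 fold change of 0.38, where the median of all genes was −0.00247. Their summed level was 33.2 and 32.9 in cluster 3, 24.5 and 24.4 in cluster 1 and 50 and 50.8 in cluster 12. ANKRD1 was the most abundant member in cluster 3, with a mean level of 10.6. MYOG, a marker of the name, is also in the list and made up most of the difference of the sum from clusters 1 and 12. Against cluster 1, 14 of 30 were higher and 4 lower, and against cluster 12, 2 were higher and 16 lower. The MEF2 proteins are partners of the myogenic factors, and they did not share 1 pattern. MEF2D had levels of 0.333 and 0.356 and MEF2A of 1.82 and 1.78, both higher than in cluster 1 (log2 fold changes 0.94 and 0.73). MEF2C had levels of only 0.0122 and 0.0110 in cluster 3 against 0.394 and 0.398 in cluster 12 (log2 fold change −5.18, SE 0.13). MYF5 had levels of 0.953 and 0.793 in cluster 3, below the 1.60 and 1.5 in cluster 1 (log2 fold change −0.79, SE 0.093), and against all other cells it did not pass the threshold (−0.00). MYOD1 was higher in cluster 3 than in either neighbor, with log2 fold changes of 0.33 against cluster 1 and 0.58 against cluster 12, although the first did not pass the threshold when the cells were grouped by Leiden clustering (0.13). Of its E-protein partners, TCF12 was higher than in cluster 1 (0.48) and TCF3 by less (0.28, a call lost with DESeq2), while TCF4 did not pass the threshold (−0.06).

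Genes of proteins that restrain the myogenic factors were mostly lower. Of 17 tested genes of this list, 9 were lower in cluster 3 than in the other cells and 3 were higher, with a median log2 fold change of −0.57, and 9 of 15 were lower and 2 higher against cluster 1. The ID proteins bind E proteins and keep them from the myogenic factors. ID3 had levels of 1.41 and 1.37 in cluster 3 and 2.97 and 2.94 in cluster 1 (log2 fold change −1.05, SE 0.046), and ID2 had 0.687 and 0.685 against 1.38 and 1.49 (−1.03, SE 0.056). ID1 was the exception, with levels of 9.77 and 9.38 against 9.51 and 9.84, and did not pass the threshold (0.02, SE 0.047). Also lower than in cluster 1 were MDFI, an inhibitor of MYOD1 family proteins (−1.0), TWIST1 (−0.99) and SNAI2 (−0.82), both repressors of differentiation, and the histone deacetylase HDAC5, which binds MEF2 (−0.72). SNAI1 was higher (0.39). Against cluster 12, 5 of 15 were higher and 2 lower (median 0.06), or 5 and 4 with blocking on the library, and among the higher were ID2 (1.09), ID3 (0.66), MDFI (0.85) and SNAI2 (0.79).

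Exit from the cell cycle was read from inhibitors of cyclin-dependent kinases and from genes of S and G2/M phase. Of the 43 S phase genes, 43 were lower in cluster 3 than outside it (median log2 fold change −1.47), and of the 54 G2/M genes, 52 were lower and 2 higher (median −1.97). The summed level of the S phase list was 10.7 and 11 in cluster 3, 10.7 and 10.8 in cluster 1 and 6.75 and 7.15 in cluster 12, while all other cells together had 29.1 and 28.3. For the G2/M list it was 27.0 and 29.0 in cluster 3, 22.1 and 21.5 in cluster 1 and 24.9 and 24.8 in cluster 12. Of its 54 genes, 20 were higher in cluster 3 than in cluster 1 and 2 were lower. With the library as a block these were 27 and 6. Against cluster 12, 27 of the 54 were higher and 2 lower, where 15.6% and 18.2% of all genes were. Of the 42 S phase genes tested against cluster 1, 7 were higher and 10 lower (median −0.00), where 21.1% and 19.1% of all genes were. With DESeq2 these were 2 and 3. When the cells were grouped anew by Leiden clustering, 41 of the 54 G2/M genes were higher than in the matching cluster 1, as were 27 of the S phase genes, with 1 lower in each list. Over all genes in that comparison, 2147 of 11118 were higher and 1886 were lower. MKI67 was counted in 17.3% of the thinned cells of cluster 3 (15% and 20% in the replicates), 17.9% in cluster 1 and 8.48% in cluster 12.

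Of 22 tested genes of CDK inhibitors and cell cycle exit, 8 were higher and 8 lower than in all other cells (median log2 fold change −0.04). Over all genes 24.5% were higher and 25.4% lower, so that the list held more calls, equally in both directions. CDKN1C was the most abundant of them, and its level of 18.6 and 19.1 in cluster 3 lay between the 9.95 and 10.6 in cluster 1 (log2 fold change 0.92, SE 0.045) and the 37.5 and 37.3 in cluster 12 (−1.08, SE 0.047). CDKN1A, the inhibitor p21, followed another pattern, with levels of 1.76 and 1.67 in cluster 3, 1.69 and 1.68 in cluster 1 and 10.2 and 9.05 in cluster 12. Its log2 fold change was 0.06 (SE 0.051, not past the threshold) against cluster 1 and −2.59 (SE 0.077) against cluster 12. Among single cells CDKN1C was counted in 95.5% of the thinned cells, against 20.4% in cluster 9, and CDKN1A in 39.4%, where clusters 1 and 12 had 40.6% and 91.0% for CDKN1A. GADD45G, a growth arrest gene, had levels of 3.66 and 3.76 in cluster 3 (log2 fold change 0.81 against cluster 1), and ZBTB18, a repressor that acts in muscle differentiation, had 1.08 and 1.07 (1.15). The retinoblastoma gene RB1, with levels of 0.294 in both replicates, was lower than in cluster 12 (−1.05). Of the cyclin and G1 genes, 11 of 18 were lower than in all other cells and 2 were higher, or 4 with the library as a block, and CCND1, with levels of 0.789 and 0.864, was higher than in cluster 12 (1.44).

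The genes of the thick filament, the thin filament and the Z-disc were examined as 1 list. Their summed level was 152 and 148 UMIs per 10000 in cluster 3, 68.5 and 69.3 in cluster 1 and 441 and 434 in cluster 12. Cluster 15, whose cells were shallow, had 152 and 147, the same as cluster 3, and cluster 7 had 133 and 119. Of the 44 tested against cluster 1, 35 were higher in cluster 3 and 4 were lower (median log2 fold change 1.66), and of the 52 tested against cluster 12, 47 were lower and 1 was higher (median −2.46). Against all other cells 27 of 52 were higher and 13 lower (median 0.56), but with the other 14 clusters weighted equally these became 21 and 18 with a median of −0.04. ACTC1 alone made up a level of 60.1 ± 1.28 (SD, n = 2 libraries) of the sum.

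Within this list the levels in cluster 3 ranged from near those in cluster 12 to near those in cluster 1. KLHL41 (levels 4.50 and 4.01 in cluster 3, 8.62 and 7.89 in cluster 12), ACTC1 and NEB were among those nearest to cluster 12, with log2 fold changes of −1.06, −1.41 and −1.44. For the troponins, TNNC2 differed from cluster 12 by −1.64, TNNC1 by −2.75, TNNT2 by −3.26 and TNNT1 by −4.77. The myosin heavy chain MYH3 had a mean level of 1.27 in cluster 3 and 15.5 in cluster 12. Some members, chosen after their values were seen, had few UMIs in cluster 3, with mean levels of 0.0142 for MYL2, 0.00223 for MYOT (myotilin) and 0.0163 for MYOM2. No UMI was counted in cluster 3 for MYH1, MYH4, MYL3, SMPX or TCAP. A count of 0 allows up to 3 UMIs per library, of the totals given above, for counting error only. CRYAB, the small heat shock protein of the Z-disc, had a mean level of 4.36 against 2.21 in cluster 1 and 15.7 in cluster 12. Reads shared by near-identical genes, such as the actins, are counted by Cell Ranger only where they map to 1 gene, which leaves levels of such genes less certain.

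**Figure D4:**
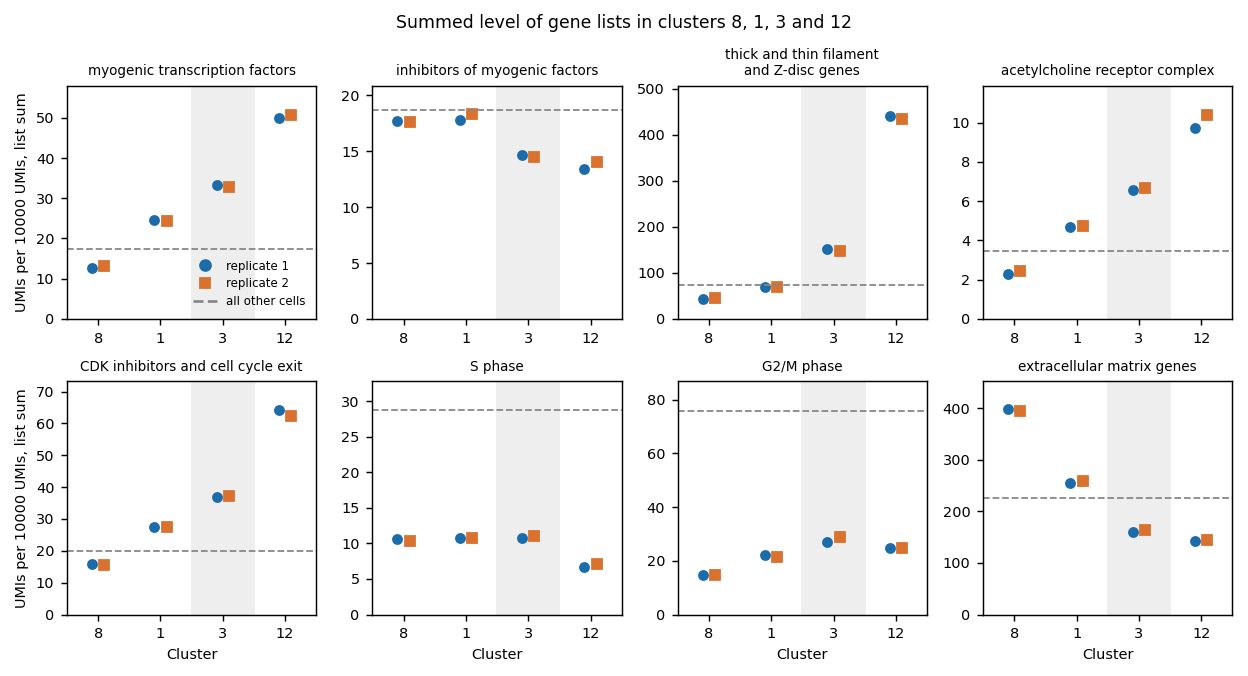
Summed level of 8 gene lists, in UMIs per 10000 UMIs, in clusters 8, 1, 3 (grey band) and 12, with circles for replicate 1, squares for replicate 2 and a dashed line for the mean of all cells outside cluster 3. The filament list is 152 and 148 in cluster 3 against 441 and 434 in cluster 12, and the S phase list is as low in cluster 3 as in clusters 8 and 1.

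Acetylcholine receptor genes, which muscle makes before and during innervation, had a summed level of 6.57 and 6.65 in cluster 3, above all other cells (3.36 and 3.54) and below cluster 12 (9.73 and 10.4) and cluster 7 (8.11 on average). Of 11 genes tested, 7 were higher than in all other cells and 1 was lower (median log2 fold change 0.91), and 6 of 11 were higher and none lower than in cluster 1, namely CHRNG, CHRND, DOK7, MUSK, CHRNB1 and CHRNA1. Against cluster 12, 7 of 9 were lower and none higher (median −0.90). CHRNG had levels of 1.98 and 1.97 in cluster 3, 0.704 and 0.714 in cluster 1 and 3.95 and 4.17 in cluster 12. The delta subunit CHRND had the largest log2 fold change of the list against cluster 1 (1.99), at a mean level of 0.137. RAPSN, which clusters the receptor, had the highest level, 2.75, but did not pass the threshold against cluster 1 (0.10) or cluster 12 (−0.13), though it passed both, at the same values, with the library as a block. The call of CHRNA1 against cluster 1 (0.23) was lost with DESeq2 and with Leiden clustering. The subunit of the adult receptor, CHRNE, was counted with 25 UMIs in the cluster (level 0.00705).

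Genes of coupling and fusion were compared next. Of the calcium and excitation-contraction coupling genes, 10 of 18 were higher and 1 was lower than in cluster 1 (median log2 fold change 0.61), and 16 of 21 were lower and 1 higher than in cluster 12 (median −1.32). With the library as a block these were 12 higher and 2 lower, and 16 lower and 2 higher. Against all other cells 9 of 21 were higher and 5 lower, where 24.5% and 25.4% of all genes were. With the clusters weighted equally these were 7 and 8. STAC3, which links the calcium channel to the ryanodine receptor, had a mean level of 0.438 (log2 fold change 1.48 against cluster 1), and BIN1, which shapes the transverse tubules, one of 6.18 (0.42). MYMK had levels of 0.313 and 0.373 in cluster 3, 0.0640 and 0.0794 in cluster 1 and 3.11 and 3.20 in cluster 12, and was counted in 12.8% of the thinned cells against 2.68% and 70.3%, and 0.556% in cluster 9. Its partner in fusion, MYMX, had 21 UMIs in the cluster. As a whole list, the fusion and adhesion genes were mixed. Of 31, 13 were higher than in all other cells and 11 lower (median −0.04), where 24.5% and 25.4% of all genes were. With the clusters weighted equally these were 9 and 13 (median −0.27). Against cluster 1, 6 of 26 were higher and 9 lower (median −0.08), where 21.1% and 19.1% of all genes were. With DESeq2 these were 5 and 4. Against cluster 12, 5 of 27 were higher and 11 lower (median −0.25), where 15.6% and 18.2% of all genes were. CDON, a receptor that promotes differentiation, was higher than in cluster 1 (1.15), as were JAM3 (0.63) and NEXN (0.52), while ITGA5, the fibronectin receptor subunit, was lower (−0.68), as was the cadherin CDH11 (−1.79).

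Extracellular matrix genes were lower as a list. Of 41 genes, 35 were lower and 2 were higher in cluster 3 than in all other cells (median log2 fold change −0.96), and 35 were lower and 1 was higher than in cluster 1 (median −0.72), or 36 and 3 with the library as a block. The summed level was 160.3 and 163 in cluster 3, 254 and 259 in cluster 1 and 398 and 394 in cluster 8. Other clusters were near or below cluster 3, such as cluster 2 with 158, cluster 6 with 169.7 and cluster 14 with 121 on average, while cluster 7 was far above with 889.9. COL1A1, a chain of type I collagen, had a mean level of 16.4 against 39.4 in cluster 1 (log2 fold change −1.23), COL3A1 had 22.5 against 42.1 (−0.87), and FN1 (fibronectin) had 0.929 against 1.93 (−1.02). THBS1, the matricellular protein thrombospondin 1, was the gene that went against the list, with 9.25 against 4.86 (0.97). Against cluster 12, 23 of 39 matrix genes were higher in cluster 3 and 5 were lower (median 0.39).

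Genes of the satellite cell and its progenitors lay on both sides, with a summed level of 11.6 and 11.4 in cluster 3, 8.72 and 8.95 in all other cells and 11.9 on average in cluster 1. NCAM1, the most abundant member, made up a mean level of 5.92 of the sum in cluster 3. PAX7, the transcription factor that defines satellite cells, had levels of 0.00158 and 0.00183 in cluster 3, and PAX3 of 0.00528 and 0.00731, both lower than in all other cells (log2 fold changes −1.87 and −0.79), though these levels rest on 6 and 22 UMIs and the calls were lost with DESeq2. Of 15 genes tested in this list, 5 were higher and 6 lower than in all other cells, where 24.5% and 25.4% of all genes were. FGFR4, a receptor of fibroblast growth factors, had levels of 0.349 and 0.396 in cluster 3 against a mean of 0.994 in cluster 1 (−1.38) and 0.133 in cluster 12 (1.39). ITGA7, the laminin receptor of muscle, was higher than in cluster 1 (0.61), and NCAM1 did not pass the threshold (0.01). Of 20 Notch pathway genes tested against cluster 1, 5 were higher and 6 lower, where 21.1% and 19.1% of all genes were. The ligand DLL1 was higher (levels 0.490 ± 0.0262 in cluster 3 and 0.245 in cluster 1, log2 fold change 1.04), as was the receptor NOTCH1 (0.86). The receptor NOTCH3 was lower (−2.30), with the ligand JAG1 (−1.91) and the Notch targets HEYL (−1.75) and HEY1 (−0.83).

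Growth factor genes also had members on both sides, 8 of 31 being higher and 14 lower than in all other cells (median log2 fold change −0.33). Over all genes 24.5% were higher and 25.4% lower, so that only the lower members exceeded the share over all genes. IGF2, the most abundant of them, had levels of 14.4 and 18.2 in cluster 3, 11.3 and 14.6 in cluster 1 and 20.7 and 25.8 in cluster 12, so that replicate 2 exceeded replicate 1 in each, and against cluster 1 it did not pass the threshold (0.36, SE 0.13), but did so with the library as a block (0.37). MSTN, the growth inhibitor myostatin, was higher in cluster 3 than in cluster 1 (2.55, SE 0.31), at levels of 0.0555 and 0.0426 against 0.0111 and 0.00602. IGFBP5 (−1.98), IGFBP4 (−1.21) and IGFBP6 (−1.15) were lower than in cluster 1, whereas IGFBP3 was higher (0.39), a difference that turned to −0.03 with Leiden clustering. Of 19 heat shock genes, 15 were higher than in cluster 1 and 2 lower (median 0.43), where 21.1% and 19.1% of all genes were. HSPB2 (1.48) and HSPB8 (1.19), chaperones of striated muscle, led them. Against cluster 12, 5 were higher and 8 lower (median −0.13), where 15.6% and 18.2% of all genes were. Of the muscle energy enzymes, 8 of 17 were higher and 3 lower than in cluster 1, where 21.1% and 19.1% of all genes were. Of 18 such genes, 2 were higher and 9 lower than in cluster 12, where 15.6% and 18.2% of all genes were. Among them was FABP3, the fatty acid-binding protein of muscle, with a level of 5.67 ± 0.0843 in cluster 3 and 2.90 in cluster 1 (1.00), while CKM, the muscle creatine kinase, remained at 0.00993 against 0.534 in cluster 12. Of the 22 immediate early genes, 6 of 18 tested were higher than in cluster 1 and 4 were lower, where 21.1% and 19.1% of all genes were. Of 81 ribosomal protein genes, 4 were higher and 2 lower than in cluster 1 (median −0.03), or 4 and 12 without TMM scaling. Blocking on the library made these counts 11 and 28. Against all other cells 54 of 82 were higher and none lower (median 0.20), or 76 and 1 with the block, but without TMM scaling 11 were higher and 1 was lower. The linkage list of intermediate filament and membrane proteins was split, 7 of 19 higher and 7 lower than in cluster 1, or 6 and 3 with DESeq2.

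Markers of other cell types that a culture from muscle could hold were counted. The 9 endothelial markers summed to levels of 0.0555 and 0.0493 in cluster 3, nearly all of it CLDN5 (0.0481), which reached 0.220 in cluster 12, and EMCN, ESAM, KDR and TIE1 had no UMI. The 9 immune markers summed to 0.0254 and 0.0298, mostly CD68, with PTPRC, AIF1 and CD79A at 0. The 6 adipocyte markers summed to 0.0475 and 0.0530, mostly FABP4, with LEP at 0. Glial markers summed to 0.415 and 0.405, of which S100B was 0.407 on average, and SOX10 and FOXD3 had no UMI. Defining genes of these lineages were therefore at or near 0. The 13 fibro-adipogenic markers found summed to 6.22 and 6.51 in cluster 3 against 13.4 and 13.2 in all other cells, with 11 of 12 tested lower and 1 higher. DCN, the matrix proteoglycan decorin, which myoblasts also make, was the most abundant (3.5), and PDGFRA was at 0.0919 on average. Pericyte and smooth muscle markers summed to 17.2 and 16.7, of which DES gave 10.5 and ACTA2 5.99, and RGS5 was at 0. By Scrublet scores, 97 cells of cluster 3 (4.77%) were among the 8.0% of each library most like doublets.

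Cells of cluster 3 differed in how much MYOG they carried. After thinning to 5000 UMIs, the MYOG count of a cell had a median of 2, a 75th percentile of 5, a 95th percentile of 13 and a maximum of 30. Cells were grouped by this count into 755 cells with 0 UMIs (37.2%), 232 with 1, 328 with 2 to 3 and 716 with 4 or more (35.3%). Their depth before thinning was alike, with medians of 16434.5 to 16608.5 UMIs. The groups were made within each library from the same counts, and their levels are given as a description.

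ACTC1, CDKN1C and the filament list as a sum were higher where MYOG was higher. ACTC1 had levels of 46.0 and 41.5 in cells with no MYOG UMI, 60.3 and 54.6 with 1, 62.8 and 63.6 with 2 to 3, and 76.2 and 76.8 with 4 or more. CDKN1C had 12.7 and 12.3 in the lowest group and 26.8 and 27.4 in the highest. The summed level of the CDK inhibitor list, of which CDKN1C is a member, was 30.1 and 29.9 against 45.6 and 46.2, so that most of its difference was that of CDKN1C. The filament list had summed levels of 124 and 119 in the lowest group and 174 and 170.3 in the highest, without overlap of the libraries, and most of this difference was that of ACTC1, a member of the list. MYH3 was at 0.863 and 0.703 in the lowest and 1.73 and 1.83 in the highest group, and MYMK at 0.0686 and 0.219 and at 0.622 and 0.569. DES differed by less, with 9.44 and 8.29 against 11.5 and 11.7. MYF5 ran the other way, from 1.25 and 1.01 to 0.530 and 0.489. MYOD1 showed no order, its levels being 6.56 and 5.87 in the lowest and 6.79 and 5.93 in the highest group. Without MYOG, the list of myogenic transcription factors was 26.3 and 25.8 in the lowest and 26.9 and 25.5 in the highest group. The G2/M list was 24.9 and 26.7 in the lowest and 29.4 and 32.6 in the highest group, and the S phase list overlapped with 11 in both libraries against 9.86 and 11.2. COL1A1 was 17.8 and 17 against 14.5 and 13.3. Cells without a MYOG UMI nevertheless had ACTC1 above the 16.2 and 17.1 of cluster 1 as a whole, where cells with MYOG are included.

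**Figure D5:**
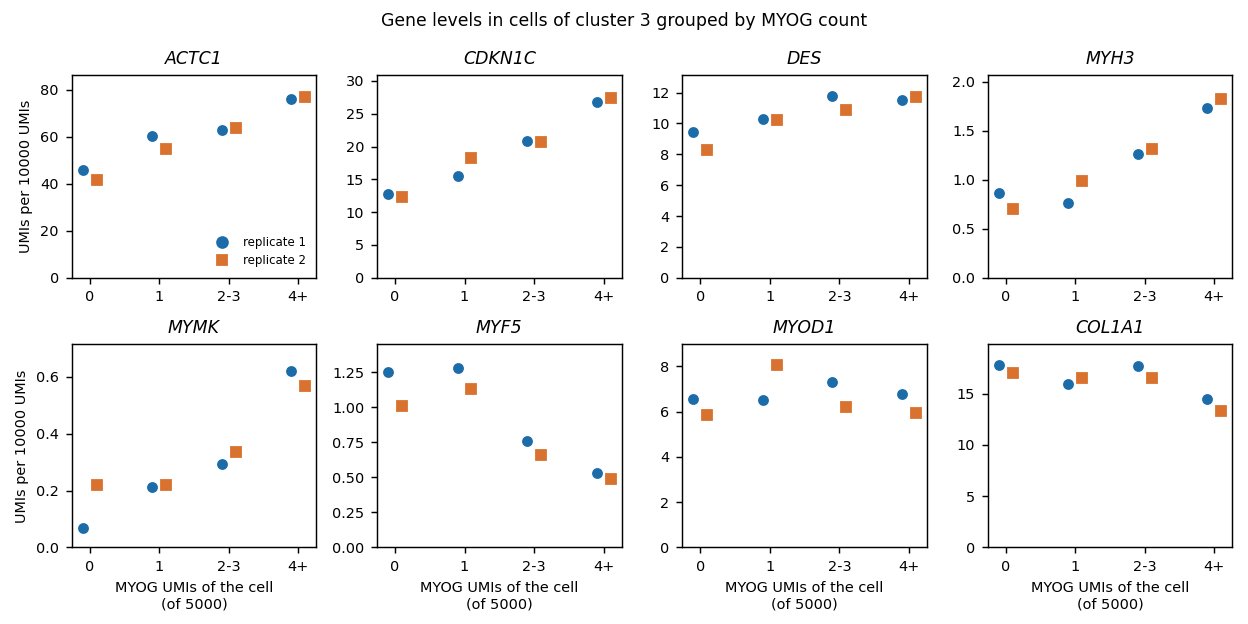
Levels of 8 genes, in UMIs per 10000 UMIs after thinning, in cells of cluster 3 grouped by their MYOG count (0, 1, 2 to 3, and 4 or more UMIs of 5000), with circles for replicate 1 and squares for replicate 2. ACTC1 and CDKN1C are higher with more MYOG, MYF5 is lower, and MYOD1 has no order.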

How the data were processed

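Single cell suspensions from 1 culture were made into 2 libraries with the 10x Genomics Chromium 3′ v3 kit. The authors counted UMIs with Cell Ranger 3.0.2 on the bovine genome ARS-UCD1.2, combined both libraries after thinning reads to equal mapped reads per cell, and deposited raw UMI counts per gene and cell, which are the counts used here. The authors also deposited a cluster average of each gene, a score equal to the UMI sum of a cluster over its total, scaled to a common size. Log2 fold changes and p-values that the authors deposited beside these averages were not used.

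The cluster of each cell was deduced as the one that the deposited averages require, so that all 252240 sums of 16816 genes in 15 clusters matched, after 32 rounds of elimination, with a largest deviation of 0.00011 UMIs from a whole number before rounding. The feature list held 21867 genes. UMIs of each cluster were summed per library and tested with edgeR 4.0.16 (quasi-likelihood test, TMM, filterByExpr) in R 4.3.3, at an adjusted p under 0.05 (Benjamini-Hochberg over all genes tested). Each p-value measures only the spread between libraries of the same cells. Each SE was the absolute log2 fold change divided by the square root of the F statistic of the quasi-likelihood test. On simulated counts with 200 genes changed 3-fold, the test recovered 84.0% against all other cells, 89.5% against cluster 1 and 85.5% against cluster 12, with 23, 30 and 16 false calls, so that the share of false calls exceeded the threshold. The sums of both groups come from the same libraries, and the log2 ratio of replicate 1 to replicate 2 in cluster 3 had a Pearson r across genes, which are not independent replicates, of 0.668 with all other cells, 0.512 with cluster 1 and 0.396 with cluster 12, so the library number pairs the sums. Levels are UMIs per 10000 UMIs.

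Alternatives were DESeq2 1.42.0, no TMM, no filter, the library as a block, leaving out likely doublets (the 8.0% with the highest Scrublet scores in scanpy 1.11.5), leaving out 1898 cells under 2000 UMIs (0 in cluster 3), Leiden clustering, assignment to the best profile, other reference cells, and thinning to 3000 UMIs. Likely doublets stayed in the main results.

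Genes named are the markers and the genes discussed by the study, the 15 most increased and 8 most decreased against all other cells, the 6 furthest each way against clusters 1 and 12, the 10 peaking most in cluster 3 (all at a level of 1 or more in 1 of the groups), and up to 6 members of each list with the highest level or the largest or smallest change. Further list members, such as FN1, HDAC5, NOTCH1, RB1, TCF3, TCF4, the troponins TNNC1, TNNT1 and TNNT2, MYL2, MYOM2, MYOT and some genes at 0, were chosen after their values were seen. The members, lists and tests were chosen with earlier results of these data known. The list of mitochondrially encoded genes gave no value, since 0 of 13 symbols were found, and other members without a value are not analysed here. Some genes that this rule names are not reported here.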

Additional observations from a re-analysis of the deposited data

How the results depend on the processing

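Over 379 pairs of a named gene and a comparison, 298 kept their side of the threshold in each alternative with a test. None of these 298 changed direction where it passed the threshold. In 20 pairs the direction changed in at least 1 alternative, with the pair past the threshold in the main results or in that alternative. Changes of sign in pairs that passed in neither were not counted. With DESeq2, 1254 genes were lower than in cluster 1 and 845 were higher than in cluster 12. With the library as a block, the sums being paired, 4099 genes were higher and 3951 lower than in all other cells, 3271 and 3004 against cluster 1, and 2411 and 2561 against cluster 12, and apart from the calls given above the block added only calls of fold changes not quoted here. Best profile assignment gave MYOG a level of 6.93 and the filament list 153, and Leiden clustering gave 7.70 for MYOG, 11 for DES and 163 for the list. Thinning to 3000 UMIs left MYOG in 57.1% of cells. Leaving out a replicate gave levels of 6.61 to 6.76 for MYOG, 6.18 to 6.52 for MYOD1, 10.2 to 10.8 for DES and 148 to 152 for the list, and shares of 62.2 to 63.3% for MYOG. No test was made on 1 library against 1, since no residual degrees of freedom remain.

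Log2 fold changes that changed sign are listed for pairs that passed the threshold in the main results or in the alternative. The cause was not tested. With Leiden clustering they were 0.11 for ACTA1, 0.87 for CKM, 0.21 for MYOM2 and 0.12 for TNNT1 against all other cells, −0.19 for CDKN1A, −0.01 for CITED2, −0.03 for IGFBP3, 0.57 for KIF20B, −0.19 for NCAM1 and 1.08 for UHRF1 against cluster 1, and 1.32 for KIF20B, 2.44 for NUSAP1 and 1.92 for TOP2A against cluster 12. With best profile assignment those of NUSAP1 and TOP2A against cluster 12 were 0.61 and 0.43. With the other clusters weighted equally they were −0.06 for CDKN1A, −0.29 for MYH3, −0.60 for MYL4, −0.26 for MYOZ2, −0.04 for NOTCH1, −0.34 for SMIM5 and 0.18 for ENSBTAG00000012184. Against the other myogenic clusters they were −0.08 for CDKN1A, −0.02 for MYH3 and −0.14 for SMIM5.

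The libraries share 1 animal and 1 culture, and differences between animals were not measured. Clusters were drawn from the counts compared, and cluster boundaries moved with the method: the matching Leiden cluster held 1695 cells, of which 1513 were in cluster 3. Cluster 1 was matched less well. Its Leiden match held 1678 cells, which included 1387 of the 2493 cells of cluster 1. The lowest levels rest on few UMIs.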

Other observations

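Of the 22 genes highest in cluster 3 in both libraries, 3 were picked out after their values were seen and are given as values only. IDI1, the isopentenyl diphosphate isomerase, had levels of 2.04 and 2.01 UMIs per 10000 in cluster 3 (1.13 times the next cluster, cluster 6). FDPS, the farnesyl diphosphate synthase, had 2.80 and 2.78 (1.06 times), and FDFT1, the squalene synthase, had 1.27 and 1.24 (1.06 times).

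Between the replicates of cluster 3, the 4080 genes with at least 1000 UMIs differed by a median of 0.0565 on the log2 scale, and 95% of them by less than 0.219. TIMP2, an inhibitor of matrix metalloproteinases, had a level of 6.27 ± 1.76 (SD, n = 2) in cluster 3, a spread wider than that of most genes at such levels.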
